A study of Mus musculus with 18 samples.

Results

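The respiratory chain and the ATP synthase of the inner mitochondrial membrane are built from nuclear-encoded and mitochondrially encoded subunits. The nuclear-encoded subunits were followed here in bulk RNA-Seq of mouse embryonic lungs. Members were taken by gene name: the rows that start with *Ndufa*, *Ndufb*, *Ndufc*, *Ndufs* or *Ndufv* (complex I), *Sdh* (complex II), *Uqcr* (complex III), *Cox4i*, *Cox5*, *Cox6*, *Cox7* or *Cox8* (complex IV) and *Atp5* (complex V). Names starting with *Ndufaf* and pseudogene names were left out. This gave 87 of the 23420 genes listed, with 38 in complex I, 6 in complex II, 8 in complex III, 18 in complex IV and 17 in complex V. The mitochondrially encoded subunits were not analysed here.

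Mutant lungs of 3 kinds were each compared with their own controls, with 3 libraries per group and 18 libraries in all. In the *Vangl1/2* experiment, at E12.5 (embryonic days post coitus), the controls were *Vangl1-/-* and the mutants *Vangl1-/-; Vangl2-/-*, so that all 6 libraries were labelled *Vangl1-/-* and the groups differed in *Vangl2*, which encodes a core protein of planar cell polarity. In the *Dermo1Cre* experiment, at E12.5, *Wnt5af/+; Dermo1Cre* controls were compared with *Wnt5af/f; Dermo1Cre* mutants. In the *Sox9Cre* experiment, at E13.5, *Wnt5af/+; Sox9Cre* controls were compared with *Wnt5af/f; Sox9Cre* mutants. All Wnt5a libraries thus carried a Cre allele and at least 1 floxed allele. *Wnt5a* encodes a secreted ligand of noncanonical Wnt signaling, *Dermo1Cre* was used by the study to delete it in the mesenchyme and *Sox9Cre* in the epithelium, where it starts after branching has begun. Cells in which Cre was not active kept *Wnt5a*, and whole lungs were sequenced. Neither the number of embryos per library nor their litters are given in the sources used here, so the p-values measure the spread between these libraries.

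Complex I takes electrons from NADH and complex II from succinate. Both pass them through ubiquinone to complex III, and cytochrome c carries them on to complex IV, where oxygen is reduced. Complexes I, III and IV pump protons, and the ATP synthase, complex V, lets the protons flow back to make ATP. Several complex IV subunits exist as paired isoforms, of which one is used by most tissues and the other by heart and skeletal muscle, lung or testis. Nuclear respiratory factors, ETS factors such as GABP, and YY1 are known to act on the promoters of many of these genes.

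The libraries held between 15945393 and 19814346 reads on genes. The deposited values, called normalized counts here, are gene counts scaled by library. The size factors lay between 0.952 and 1.07, so a value of 10 rests on about 10 reads. The test was limma on log2 values after adding 1, for genes that reached 10 normalized counts in 3 or more libraries of a table, and p-values were adjusted over all genes tested (14303, 14277 and 14293 genes in the *Vangl1/2*, *Dermo1Cre* and *Sox9Cre* experiments). Of the members, 83, 82 and 83 passed. *Vangl2* had 277, 406 and 334 in the controls and 86.5, 79.8 and 89.6 in the mutants of the *Vangl1/2* experiment (log2 fold change −1.96, SE 0.17, unadjusted p = 2.23e-06, adjusted p = 0.0318), with no overlap. *Vangl1*, labelled as mutant in both groups, had 162, 219 and 113 in the controls and 239, 274 and 242 in the mutants (log2 fold change 0.65, SE 0.23, unadjusted p = 0.0201, adjusted p = 0.233), counted over the whole gene, so that a changed part of the transcript is not seen. *Wnt5a*, counted likewise, had 472, 429.6 and 489 in the controls and 317, 436 and 229.7 in the mutants of the *Dermo1Cre* experiment (adjusted p = 0.406) and 473, 453 and 426 in the controls and 442, 362 and 448 in the mutants of the *Sox9Cre* experiment (adjusted p = 1.0). These groups overlapped, and mutant replicate 2 of the *Dermo1Cre* experiment lay above its control replicate 2. All 12 epithelial and all 12 mesenchymal marker genes passed the filter in each experiment. In the *Vangl1/2* experiment control replicate 2 stood apart from the other controls and lay with the mutants on the first principal component (score 17.0 against 15.1 to 21.5 in the mutants and −30.1 and −44.7 in control replicates 1 and 3).

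The members differed widely in level. Set against transcript length in the controls of the *Dermo1Cre* experiment, the highest values belonged to the catalytic head of the ATP synthase. *Atp5b*, which encodes the catalytic β subunit, had 10296 normalized counts per kilobase, and *Atp5a1*, which encodes the α subunit, had 6832. *Atp5o*, the OSCP subunit that ties the head to the stalk, had 6294. Within complex IV the order began with *Cox6b1* (5063 per kilobase), *Cox4i1* (4189), *Cox6a1* (3691) and *Cox8a* (3621), of which *Cox6a1* and *Cox8a* differed by less than the spread of *Cox8a* over the libraries. *Uqcrb* (4439.8) and the hinge protein gene *Uqcrh* (4113) led complex III. *Ndufa4*, which is named for complex I but whose protein is a complex IV subunit, had 4294 per kilobase, and the other complex I members tested lay between 71.6 (*Ndufa4l2*) and 2218 (*Ndufc2*). In complex II, *Sdhb*, the iron-sulfur subunit, had 1774 and *Sdha*, the flavoprotein, 1519.7. Annotated transcripts of *Ndufb2*, *Atp5g1*, *Ndufc1* and *Sdhc*, among others, differ severalfold in length, so that their places in this order are uncertain: *Atp5g1*, 1 of 3 genes for the c subunit of the rotor, had 481 per kilobase with the median length and 2159 with the shortest.

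**Figure D1:**
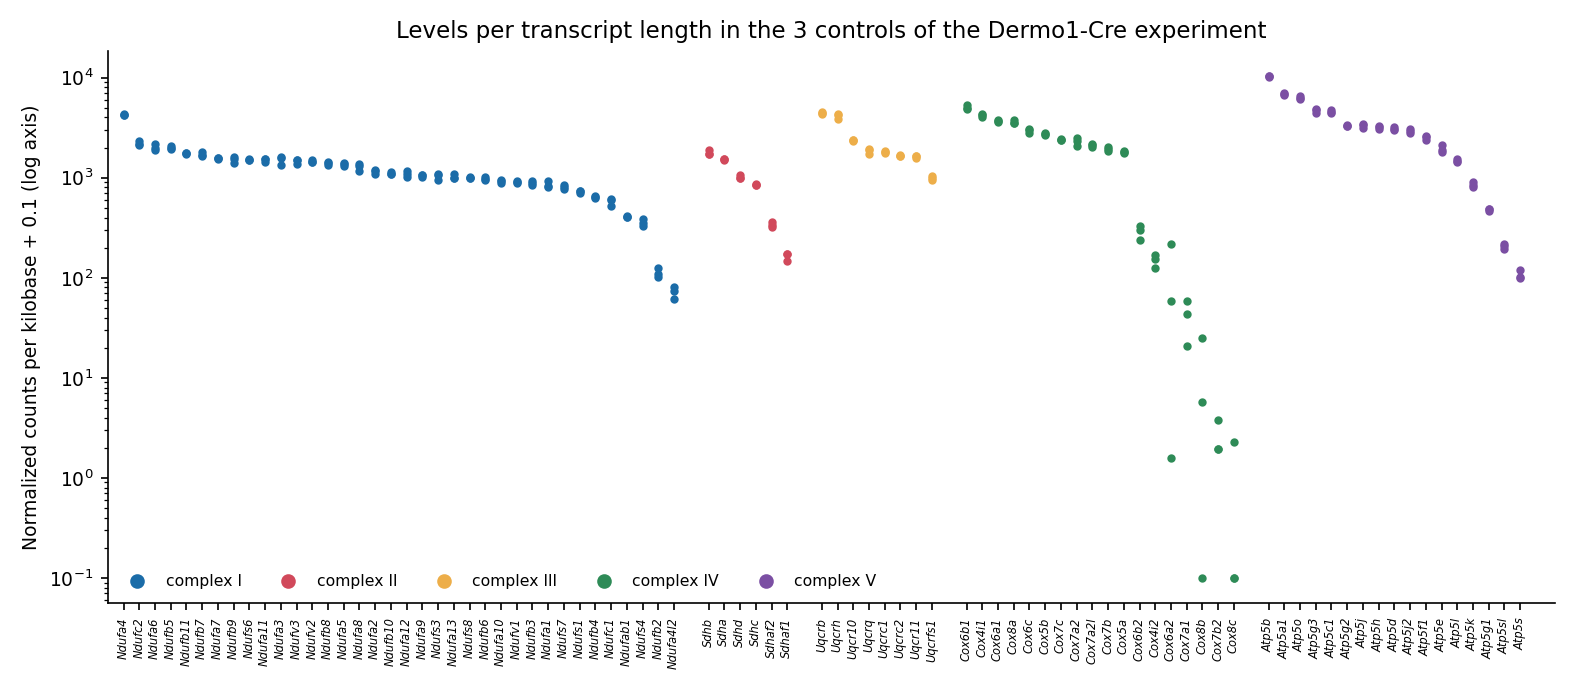
Levels of members in the 3 control libraries of the *Dermo1Cre* experiment, in normalized counts per kilobase of transcript on a log axis after adding 0.1, so that a value of 0 is drawn at 0.1; *Ndufs5* and 1 other member are not drawn. Each point is 1 library and genes are ordered by level within a complex; *Atp5b* is at 10296, and *Cox6a2*, *Cox7a1* and *Cox8b* spread over a wide range between libraries.

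In each isoform pair the isoform of most tissues made up nearly all of the signal. *Cox4i2*, the isoform known from lung, made up 1.26% to 2.67%, 2.11% to 3.90% and 2.65% to 3.42% of the *Cox4i1* and *Cox4i2* signal per transcript length in the 6 libraries of the *Vangl1/2*, *Dermo1Cre* and *Sox9Cre* experiments. *Cox6b2*, known from testis, made up 3.96% to 5.80%, 4.49% to 6.59% and 4.79% to 6.54% of its pair with *Cox6b1*. *Cox6a2*, the isoform of heart and skeletal muscle, ranged most, with 0.0363% to 2.22%, 0.0400% to 5.61% and 0% to 4.79% of its pair with *Cox6a1*. *Ndufa4l2*, a paralog of *Ndufa4* known to be induced by hypoxia, made up at most 1.87% of its pair in any library.

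The filter left out 4 members in the *Vangl1/2* and *Sox9Cre* tables and 5 in the *Dermo1Cre* table. *Ndufs5* was listed at 0 in all 18 libraries. Its processed pseudogene *BC002163*, named here after its values were seen, shares at least 250 bases with it and had between 6.52 and 167 normalized counts. The testis isoforms *Cox7b2* and *Cox8c* reached at most 3.15 and 1.97. *Cox8b*, a heart and muscle isoform, reached at most 10.97 and lay just outside the filter. *Cox7a1*, also an isoform of heart and muscle, lay on either side of it, with 12.4, 11.2 and 21 in the controls and 3.02, 22.7 and 14.8 in the mutants of the *Vangl1/2* experiment, where it was tested, and 9.02, 19.1 and 25.8 in the controls and 9.08, 6.95 and 5.99 in the mutants of the *Dermo1Cre* experiment, where it was not. Of the 87 members, 39 share at least 50 bases, counted in pieces of 25, with an annotated pseudogene. Some shared pieces recur widely, and *Sdhaf2* shared as many with 369 other genes, so not every match need be a copy. Reads on shared bases can be split between genes.

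Every tested member of the *Vangl1/2* experiment was lower in the mutants by its fold change, with a median of −0.46 on the log2 scale over 83 members against −0.01 over all genes tested. No member passed the threshold with limma (smallest adjusted p = 0.233), where 1 gene of the table did (0.00699%). At an unadjusted p under 0.05, 60 members were lower and 0 higher, beside 8.56% and 12% of all genes tested. Among the members tested, 19 had all 3 mutants below all 3 controls and 0 had all 3 above, beside 8.68% and 13.6% of all genes. With edgeR 0 and with DESeq2 1 of the members passed, the latter being *Atp5e*. At an unadjusted p under 0.05, 66 were lower with either tool, a count given without the share over all genes. In a bulk sample, fewer cells that express a gene and less of its RNA per cell cannot be told apart.

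The libraries split unevenly. The summed members had 1.09, 0.756 and 1.16 in the controls and 0.773, 0.776 and 0.709 in the mutants, as a ratio to the mean of the 3 controls. Control replicate 2 thus lay with the mutants and not with the other controls. It was below both other controls in 82 of the 83 members, within the range of the mutants in 54, above all mutants in 19 and below all mutants in 10. Control replicates 1 and 3 were above all 3 mutants in 79. The same split was seen in each complex. For complex I the ratios were 1.09, 0.74 and 1.17 in the controls and 0.748, 0.762 and 0.682 in the mutants. For complex IV they were 1.11, 0.728 and 1.17 in the controls and 0.714, 0.734 and 0.635 in the mutants, and for complex V 1.08, 0.773 and 1.14 in the controls and 0.803, 0.795 and 0.742 in the mutants. Complex II had the narrowest range, with 1.05, 0.801 and 1.14 in the controls and 0.826, 0.831 and 0.778 in the mutants.

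**Figure D2:**
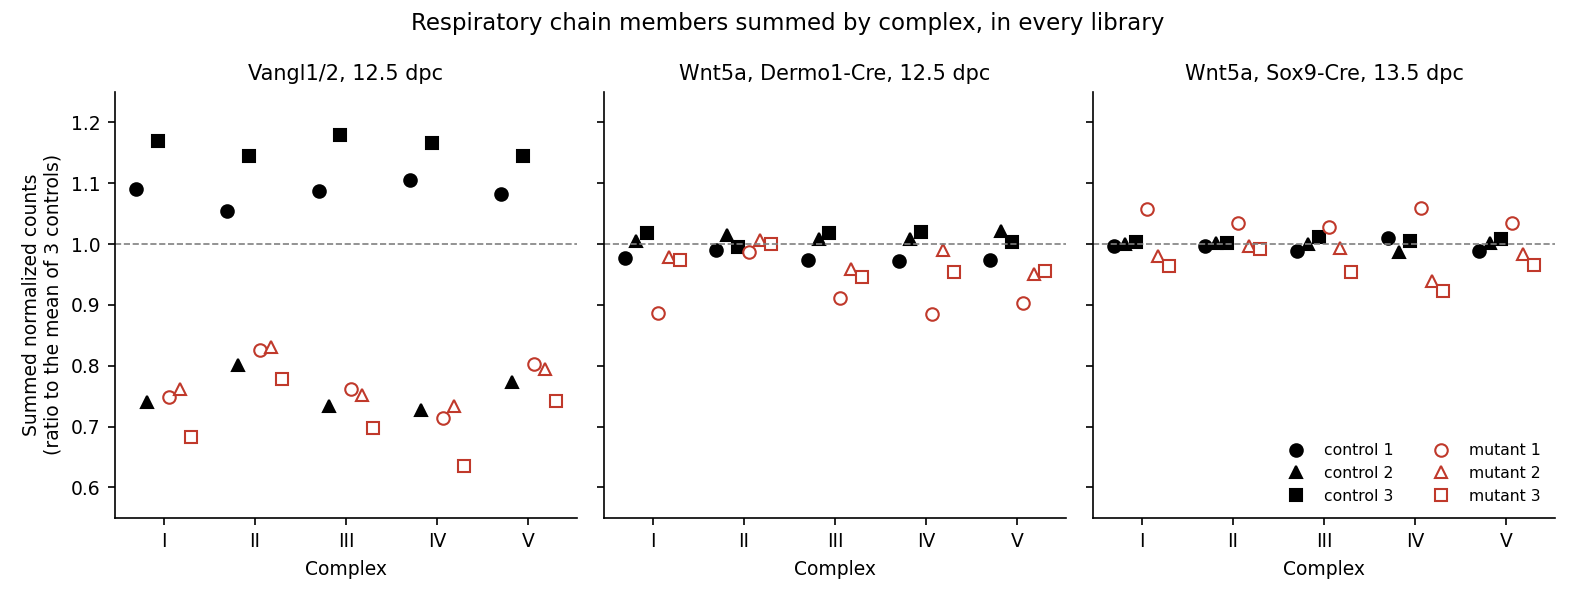
Summed normalized counts of the members of each complex in every library, as a ratio to the mean of the 3 controls of the same experiment (y axis, starting at 0.55; dashed line at 1). In the *Vangl1/2* experiment control replicate 2 lies among the mutants in every complex, at 0.728 to 0.801, and in the other experiments the libraries lie between 0.885 and 1.06.

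Leaving out control replicate 2 changed the call. Then 6183 genes of the table and 77 of the 83 members had an adjusted p under 0.05 with limma, all 77 lower in the mutants, and 21.7% of all genes tested were called lower. The median over the members was then −0.69. The other 6 were *Ndufs1*, *Atp5s*, *Ndufa4l2*, *Cox4i2*, *Cox7a1* and *Cox6a2*. Without control replicate 3 the count of lower members at an unadjusted p under 0.05 was 11 and the median −0.32, beside 2.09% of all genes, and without control replicate 1 the count was 8, beside 1.62%. Without mutant replicates 1, 2 and 3 the counts were 24, 34 and 9, beside 3.68%, 4.28% and 2.48%. No member was called in these 5 fits.

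Fold changes in this experiment also followed transcript length. Spearman's correlation of the log2 fold change with transcript length was 0.68 across the 14183 genes with a length, and 0.56 across the members, whose median length was 748 nt against 2723 nt over all genes tested. Genes and members share the libraries and are not independent replicates. Members under 1000 nt had a median of −0.48 (53 members) and those of 1000 nt or more −0.36 (30 members). Over all genes tested the medians were −0.38 under 1000 nt and 0.02 from 1000 nt. Within each library, the correlation of a gene's deviation from its mean with length was −0.64 and −0.60 in control replicates 1 and 3, and between 0.36 and 0.57 in control replicate 2 and the mutants. With the trend on length removed in each library, the median over the members was −0.09, 13 were lower and 0 higher at an unadjusted p under 0.05, beside 3.8% and 5.96% of all genes in that fit, and 72 of the 83 fold changes stayed below 0. The mesenchymal markers summed to 55107, 92071 and 43192 in the controls and 66714, 87057 and 76415 in the mutants, and the collagen genes *Col1a1* and *Col1a2* made up 66.4% of this sum. The other 10 summed to 21539, 25083 and 21942 in the controls and 23075, 25587 and 24012 in the mutants, a narrower range, with mutant replicate 2 highest. *Twist2* and *Tcf21* were lower in all mutants than in all controls, and *Tbx4*, *Tbx5* and *Fgf10* were higher. The summed epithelial markers had 27442, 22828 and 27306 in the controls and 24157, 23201 and 26661 in the mutants. At an unadjusted p under 0.05, 2 of the mesenchymal markers were lower and 3 higher, 4 of 8 airway smooth muscle markers were lower and 3 of 6 mesothelial markers were higher. Over all genes tested in the main fit, 8.56% were lower and 12% higher. The part of these markers in the result was not tested.

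**Figure D3:**
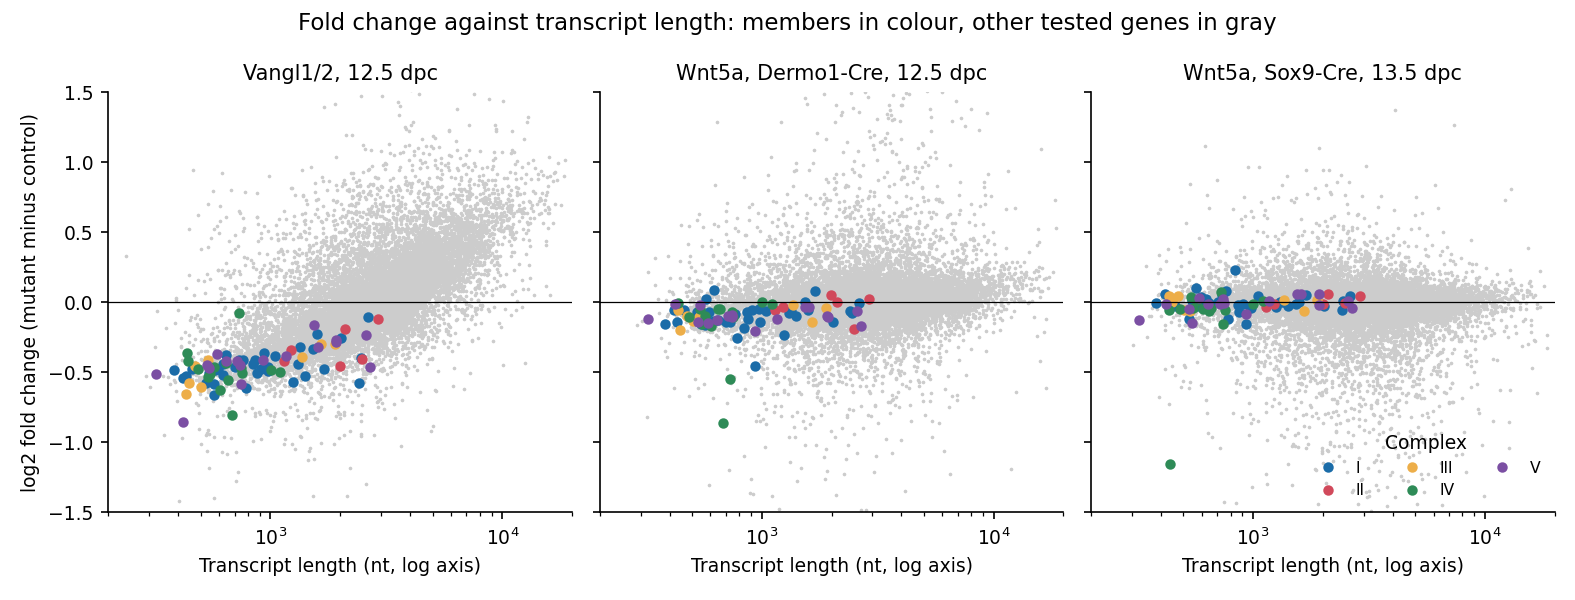
Log2 fold change (mutant minus control) against transcript length on a log axis, with members coloured by complex and all other tested genes in gray. In the *Vangl1/2* experiment the members lie at the short end of a slope that runs through the whole table (Spearman 0.68), and in the others most lie near 0; *Cox6a2* of the *Sox9Cre* experiment and some gray points lie outside the plotted range.

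Complex I, the largest group, had 11 of 37 tested members apart, at lower values in all mutants, beside 8.68% of all genes. At an unadjusted p under 0.05, 30 were lower, beside 8.56% of all genes. *Ndufa2*, an accessory subunit, had 1324, 877 and 1346 in the controls and 723, 828 and 656 in the mutants. All 3 mutants lay below the lowest control (log2 fold change −0.66, SE 0.18, unadjusted p = 0.00575, adjusted p = 0.233). The core subunits, which carry the flavin and the iron-sulfur clusters, ranged from *Ndufs1*, with the smallest difference of the complex, to *Ndufs7*. *Ndufs1* had 2199.9, 2048 and 2483 in the controls and 2082, 2074 and 2078 in the mutants, where mutants and control replicate 2 lay together (log2 fold change −0.11, SE 0.097, unadjusted p = 0.308, adjusted p = 0.522). *Ndufs7*, which binds the last cluster before ubiquinone, had 1342, 878 and 1232 in the controls and 812, 876 and 710.0 in the mutants and did not overlap (log2 fold change −0.51, SE 0.17, unadjusted p = 0.0162, adjusted p = 0.233). *Ndufv1*, the flavin-binding subunit, was likewise apart, with 2088, 1664 and 2434 in the controls and 1638, 1622 and 1595 in the mutants (log2 fold change −0.33, SE 0.14, unadjusted p = 0.0418, adjusted p = 0.239). Of other core subunits, *Ndufs3* and *Ndufv2* overlapped between groups, at −0.38 (SE 0.16) and −0.44 (SE 0.16) on the log2 scale, and *Ndufs8* did not, at −0.49 (SE 0.16).

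Complex II had the smallest median (−0.37 over 6 rows), which takes in 2 assembly factors that the name rule catches. Of its 4 subunits, *Sdhc*, a membrane anchor, had 3401, 2498 and 3886 in the controls and 2370.0, 2350.2 and 2302 in the mutants and no overlap (log2 fold change −0.45, SE 0.15, unadjusted p = 0.0185, adjusted p = 0.233). *Sdha* had 5863, 5100.3 and 6206 in the controls and 5349, 5465 and 4958 in the mutants, with overlapping groups (log2 fold change −0.12, SE 0.10, unadjusted p = 0.287, adjusted p = 0.502). *Sdhb* and *Sdhd* overlapped as well, at −0.42 (SE 0.19) and −0.34 (SE 0.16). The assembly factors *Sdhaf1* and *Sdhaf2* had −0.41 (SE 0.17) and −0.19 (SE 0.13).

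In complex III the median was −0.43 over 8 members, and the mutants lay below the controls for 2 of them, beside 8.68% of all genes. *Uqcr10*, a small accessory subunit, had 2055, 1324 and 2113 in the controls and 1180.5, 1188 and 1043 in the mutants (log2 fold change −0.66, SE 0.18, unadjusted p = 0.00605, adjusted p = 0.233). *Uqcrfs1*, the Rieske iron-sulfur protein, had 2228, 1586 and 2386 in the controls and 1556, 1569 and 1533 in the mutants (log2 fold change −0.39, SE 0.15, unadjusted p = 0.0319, adjusted p = 0.233). The large core proteins *Uqcrc1* and *Uqcrc2* overlapped between the groups, at −0.30 (SE 0.16) and −0.30 (SE 0.15), the latter being the smallest difference of the complex.

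Complex IV had a median of −0.48 over 15 tested members. *Cox6c* had 2322, 1654 and 2441 in the controls and 1440.1, 1398 and 1273 in the mutants, with every mutant below every control (log2 fold change −0.62, SE 0.15, unadjusted p = 0.00336, adjusted p = 0.233). *Cox7c* was also apart, with 3100.5, 2137 and 3033 in the controls and 1938, 1972 and 1736 in the mutants (log2 fold change −0.53, SE 0.15, unadjusted p = 0.00762, adjusted p = 0.233), and so were *Cox7a2l*, a factor of supercomplex assembly, at −0.49 (SE 0.16), and *Cox6b2* at −0.36 (SE 0.15). *Cox4i1* had 6343, 4367 and 7302 in the controls and 4359, 4371 and 3713 in the mutants, and mutant replicates 1 and 2 lay within 10 normalized counts of control replicate 2 (log2 fold change −0.51, SE 0.18, unadjusted p = 0.0245, adjusted p = 0.233). *Cox4i2* had 129, 64.3 and 90.4 in the controls and 82.5, 78.8 and 98.5 in the mutants, the smallest difference of the complex (log2 fold change −0.08, SE 0.26, unadjusted p = 0.776, adjusted p = 0.873). The remaining isoforms *Cox6a1*, *Cox6b1*, *Cox7a2*, *Cox7b* and *Cox8a* overlapped, at −0.46 (SE 0.20), −0.48 (SE 0.18), −0.56 (SE 0.20), −0.48 (SE 0.18) and −0.51 (SE 0.18). *Ndufa4* and *Ndufa4l2*, listed under complex I by name, had −0.48 (SE 0.21) and −0.36 (SE 0.30).

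In complex V, *Atp5e*, which encodes the small ε subunit of the central stalk, had the smallest unadjusted p of the members. It had 2046, 1245 and 2089 in the controls and 956, 1039 and 900.1 in the mutants, so that each mutant lay below the lowest control (log2 fold change −0.86, SE 0.19, unadjusted p = 0.00218, adjusted p = 0.233). Its fold change was the lowest of the tested members, and it was −0.37 with the length trend removed. The α and β subunits of the head had smaller differences. *Atp5a1* had −0.23 (SE 0.13) and *Atp5b* −0.27 (SE 0.14), with overlapping groups. *Atp5c1*, the γ subunit of the central stalk, had −0.38 (SE 0.17). *Atp5s*, a coupling factor, had the smallest difference of the complex, −0.16 (SE 0.13). The median of the 17 members was −0.42. They include *Atp5sl*, which the name rule catches and which the reference annotation lists as *Dmac2*.

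**Figure D4:**
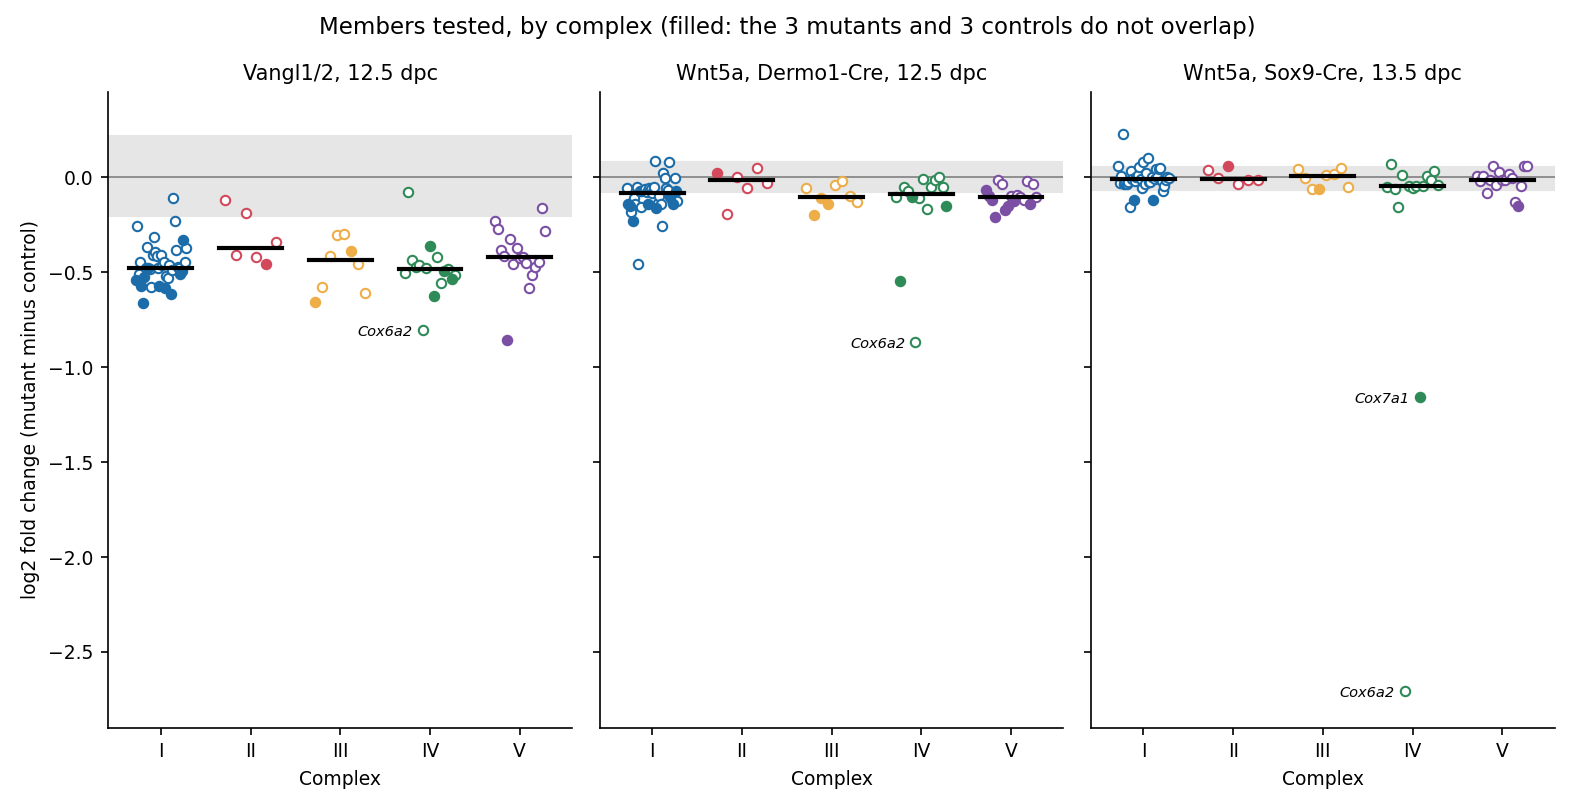
Log2 fold changes (mutant minus control) of the tested members by complex, 1 point per gene, with the median of each complex as a black bar and the quartiles of all tested genes as a gray band. Filled points mark members whose 3 mutants and 3 controls do not overlap; in the *Vangl1/2* experiment the complex medians lie between −0.48 and −0.37, in the *Dermo1Cre* experiment between −0.10 and −0.01 and in the *Sox9Cre* experiment between −0.05 and 0.01.

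In the *Dermo1Cre* experiment the differences were smaller and mostly in the same direction. Of 82 members tested, 75 had a fold change below 0 and 7 above it, with a median of −0.10 on the log2 scale against 0.00 over all genes. No member passed the threshold with limma (smallest adjusted p = 0.273), edgeR or DESeq2, while 2 genes of the table passed with limma (0.014%). At an unadjusted p under 0.05 there were 17 lower and 0 higher members, beside 4.76% and 5.42% of all genes tested. With edgeR and DESeq2 17 and 12 were lower, counts given without the share over all genes. All 3 mutants lay below all 3 controls in 22 members and above them in 1, *Sdha*, beside 7.92% and 7.65% of all genes. The summed members had 0.976, 1.01 and 1.01 in the controls and 0.903, 0.968 and 0.962 in the mutants, as a ratio to the mean of the controls. Mutant replicate 1 was the lowest of the 6 libraries in 61 of the 82 members. Without it 9 members were lower at an unadjusted p under 0.05 (2.71% of all genes) and the median was −0.05, while 28 were lower without mutant replicate 2 (6.14%) and 6 without control replicate 2 (2.44%). With the length trend removed the median was −0.05 and 9 were lower and 1 higher, beside 4.55% and 5.07% of all genes.

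Complex V had 8 of 17 members with all mutants below all controls, beside 7.92% of all genes. *Atp5g1* had 1247, 1299 and 1315 in the controls and 1120.3, 1108 and 1199 in the mutants, with every mutant below every control (log2 fold change −0.17, SE 0.05, unadjusted p = 0.00651, adjusted p = 0.326). *Atp5o* had 3217, 3338 and 3453 in the controls and 2898, 3103 and 3069 in the mutants, also apart (log2 fold change −0.14, SE 0.045, unadjusted p = 0.0103, adjusted p = 0.365). *Atp5d*, the δ subunit of the central stalk, had 2838, 3017 and 2802 in the controls and 2202, 2729 and 2600.3 in the mutants, the largest difference of the complex (log2 fold change −0.21, SE 0.074, unadjusted p = 0.0196, adjusted p = 0.416). The subunits of the head were apart as well, *Atp5a1* at −0.06 (SE 0.039) and *Atp5b* at −0.10 (SE 0.044), and so was *Atp5c1* at −0.12 (SE 0.041). *Atp5e*, lowest in the *Vangl1/2* mutants, had the smallest difference here, with 765, 796 and 896 in the controls and 746, 855 and 827 in the mutants (log2 fold change −0.02, SE 0.075, unadjusted p = 0.84, adjusted p = 0.956).

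In complex III, 3 of 8 members were apart, among them *Uqcrb* at −0.11 (SE 0.04), beside 7.92% of all genes. *Uqcr11*, a small accessory subunit, had 705, 729.7 and 734 in the controls and 637, 606 and 644 in the mutants (log2 fold change −0.20, SE 0.054, unadjusted p = 0.00425, adjusted p = 0.301). *Uqcrc1* had 2993, 3027 and 2946 in the controls and 2556, 2813 and 2763 in the mutants (log2 fold change −0.14, SE 0.045, unadjusted p = 0.0115, adjusted p = 0.375). The mutants lay below the controls in both. *Uqcrc2* and *Uqcrfs1* overlapped, at −0.04 (SE 0.039) and −0.02 (SE 0.052).

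In complex I, 8 of 37 members were apart, beside 7.92% of all genes, and the median was −0.08. *Ndufa13*, which is also known as Grim19, had 1255, 1232 and 1364 in the controls and 1029, 1131 and 1121 in the mutants, and the highest mutant lay below the lowest control (log2 fold change −0.23, SE 0.058, unadjusted p = 0.00291, adjusted p = 0.273). *Ndufs8*, a core subunit with iron-sulfur clusters, was apart at −0.14 (SE 0.057), and so was *Ndufv2* at −0.07 (SE 0.044). *Ndufs1*, *Ndufs3*, *Ndufs7* and *Ndufv1* overlapped, with values between −0.12 and 0.00. *Ndufa4* had −0.05 (SE 0.048). The highest value of the complex was that of *Ndufb5*, with 1223, 1229 and 1283 in the controls and 1263, 1347 and 1362 in the mutants and overlapping groups (log2 fold change 0.09, SE 0.048, unadjusted p = 0.101, adjusted p = 0.564).

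Complex II did not share the direction, with 3 of 6 rows below 0 and a median of −0.01. *Sdha* had 4417, 4384 and 4420.2 in the controls and 4498, 4441 and 4489.6 in the mutants, where the lowest mutant lay just above the highest control (log2 fold change 0.02, SE 0.035, unadjusted p = 0.531, adjusted p = 0.849). *Sdhc* had 0.05 (SE 0.04), *Sdhb* −0.06 (SE 0.051) and *Sdhd* −0.03 (SE 0.054), all with overlapping groups. The assembly factor *Sdhaf1* was lowest, at −0.19 (SE 0.091), with overlap.

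In complex IV the minor isoforms did not share 1 pattern, and *Cox6b2* had −0.01 (SE 0.18). *Cox8a* had 1950.0, 2078 and 1947 in the controls and 1674, 1831 and 1874 in the mutants, with no overlap (log2 fold change −0.15, SE 0.053, unadjusted p = 0.0178, adjusted p = 0.414). *Cox6a1* was apart too, at −0.10 (SE 0.048). *Cox4i1*, *Cox6b1*, *Cox7a2*, *Cox7a2l* and *Cox7b* overlapped, between −0.11 and 0.00. *Cox4i2* had 111, 124 and 92.1 in the controls and 76.6, 65.5 and 80.9 in the mutants, so that the highest mutant lay below the lowest control (log2 fold change −0.54, SE 0.16, unadjusted p = 0.00682, adjusted p = 0.334). *Ndufa4l2* had 57.1, 68.2 and 75.3 in the controls and 36.3, 68.5 and 44.9 in the mutants, where mutant replicate 2 lay among the controls (log2 fold change −0.46, SE 0.24, unadjusted p = 0.0888, adjusted p = 0.544). Of the 8 airway smooth muscle markers, all tested, 6 were lower and 0 higher at an unadjusted p under 0.05, and their sum was 15521, 13658 and 18348 in the controls and 9582, 14417 and 9865 in the mutants, with mutant replicate 2 again among the controls. Of 10 markers of neurons and glia, 9 were higher at an unadjusted p under 0.05, with a sum of 727, 661 and 1070.1 in the controls and 1259, 2557 and 2647 in the mutants, and of 12 epithelial and 12 mesenchymal markers 5 and 4 were lower. These marker counts stand beside 4.76% lower and 5.42% higher of all genes tested. The part of these marker differences in the values of the members was not tested.

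In the *Sox9Cre* experiment the members lay close to their controls. Of 83 tested, 50 had a fold change below 0 and 33 above, with a median of −0.01 on the log2 scale, as against 0.00 over all genes. No member passed with limma (smallest adjusted p = 1.0), edgeR or DESeq2, and neither did any gene of the table with limma (0.0%). At an unadjusted p under 0.05, 3 members (*Cox7a1*, *Atp5l* and *Cox5b*) were lower and 0 higher, beside 2.81% and 1.08% of all genes tested. With edgeR and DESeq2 2 and 1 were lower, counts given without the share over all genes. *Cox5b*, a zinc-binding subunit outside the naming rule, was named after its values were seen and had 2059.6, 2055 and 1964 in the controls and 1978, 1819.6 and 1675 in the mutants (log2 fold change −0.15, SE 0.066, unadjusted p = 0.0472, adjusted p = 1). All 3 mutants were below the controls in 5 members and above them in 1, beside 4.36% and 4.42% of all genes, so that these counts were near the background. The summed members had 0.995, 0.999 and 1.01 in the controls and 1.04, 0.978 and 0.96 in the mutants, as a ratio to the control mean. Mutant replicate 1 was the highest of the 6 libraries in 51 members and mutant replicate 3 the lowest in 41. The mutants thus lay on both sides of the controls.

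The members apart were spread over the complexes. *Ndufa7*, an accessory subunit of complex I, had 856, 892 and 881 in the controls and 824, 815 and 781 in the mutants (log2 fold change −0.12, SE 0.055, unadjusted p = 0.0579, adjusted p = 1). *Ndufc1* had 462, 455 and 489 in the controls and 452, 426 and 417 in the mutants (log2 fold change −0.12, SE 0.069, unadjusted p = 0.125, adjusted p = 1). In both the mutants lay below the controls. *Atp5l*, the g subunit of the membrane part of the ATP synthase, had 870.2, 893 and 889 in the controls and 851, 746 and 796 in the mutants, all mutants being below all controls (log2 fold change −0.15, SE 0.064, unadjusted p = 0.0455, adjusted p = 1). *Uqcrc1* had 2939, 3037 and 2982 in the controls and 2914, 2892 and 2771 in the mutants (log2 fold change −0.06, SE 0.046, unadjusted p = 0.205, adjusted p = 1). *Sdhaf2* was the member with all mutants above all controls, with 717, 727 and 724 in the controls and 771, 761 and 729.9 in the mutants (log2 fold change 0.06, SE 0.055, unadjusted p = 0.299, adjusted p = 1). The highest value of complex I was that of *Ndufa12*, with 772, 913 and 833 in the controls and 1015, 843 and 1103 in the mutants, where mutant replicate 2 lay among the controls (log2 fold change 0.23, SE 0.11, unadjusted p = 0.0604, adjusted p = 1).

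Apart from *Uqcrc1*, the core subunits named here overlapped between the groups. *Ndufs1*, *Ndufs3*, *Ndufs7*, *Ndufs8*, *Ndufv1* and *Ndufv2* lay between −0.07 and 0.04 on the log2 scale. *Sdha*, *Sdhb*, *Sdhc* and *Sdhd* lay between −0.03 and 0.04. *Atp5a1*, *Atp5b* and *Atp5c1* lay between −0.02 and 0.01. *Uqcrc2* and *Uqcrfs1* had 0.01 (SE 0.046) and 0.02 (SE 0.072), and *Uqcrh* had the highest value of complex III, 0.05 (SE 0.059). Among the isoforms, *Cox4i1* had −0.05 (SE 0.061), *Cox4i2* 0.07 (SE 0.16), *Ndufa4* −0.03 (SE 0.062) and *Ndufa4l2* −0.15 (SE 0.21).

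The isoforms of heart and skeletal muscle varied widely between the libraries of each table. In the *Sox9Cre* experiment *Cox7a1* had 14.9, 15.9 and 28.9 in the controls and 9.76, 10.1 and 5.13 in the mutants, with the highest mutant below the lowest control. It passed the filter through its controls, and the mutants alone would not have met it, so that its difference is given without a test and its place among the 3 lower members and the 5 apart is no support for either count. *Cox6a2* had 35.7, 54.8 and 115 in the controls and 48.8, 16.1 and 0 in the mutants, where mutant replicate 1 lay among the controls (log2 fold change −2.71, SE 1.23). Its mutants alone would not have met the filter either, so that this difference too is given without a test. *Cox8b* had 0.991, 4.98 and 11 in the controls and 2.93, 0 and 0 in the mutants and was not tested. The sum of the 18 cardiomyocyte markers was 6146, 9558 and 21004 in the controls and 6833, 3219.7 and 1124 in the mutants. Of the 17 tested, 13 were lower and 0 higher at an unadjusted p under 0.05, beside 2.81% and 1.08% of all genes. A marker that is low in the mutants can have met the filter through its controls, so this count is a description only. The markers *Nppb* and *Nkx2-5* were at 0 in some of these libraries, and *Myh6* and *Tnnt2* were read in all of them. The 6 libraries had the same order for *Cox6a2* as for the marker sum.

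*Cox6a2* of the *Vangl1/2* experiment had 12.4, 8.39 and 43.1 in the controls and 1.01, 65 and 6.89 in the mutants, and the marker sum was 2159.6, 1913 and 6374 in the controls and 650.1, 8993 and 1868 in the mutants. The order of the libraries was again the same for both, from mutant replicate 2 down to mutant replicate 1. In the *Dermo1Cre* experiment *Cox6a2* had 1, 40.1 and 147 in the controls and 13.1, 22.8 and 4.99 in the mutants, with a marker sum of 1492, 7653 and 23176 in the controls and 3309, 5064 and 996 in the mutants. Control replicate 3 was highest in both, and the order differed only in the lowest 2 libraries. The differences between the groups overlapped in both experiments (log2 fold change −0.80, SE 1.17, unadjusted p = 0.512, adjusted p = 0.695, and log2 fold change −0.86, SE 1.28, unadjusted p = 0.515, adjusted p = 0.844). Its partner *Cox6a1* had 2026, 2029 and 1916 in the controls and 2159.8, 2007 and 1862 in the mutants of the *Sox9Cre* experiment, a narrower range. The part of cardiomyocyte RNA in the values of the muscle isoforms was not tested.

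**Figure D5:**
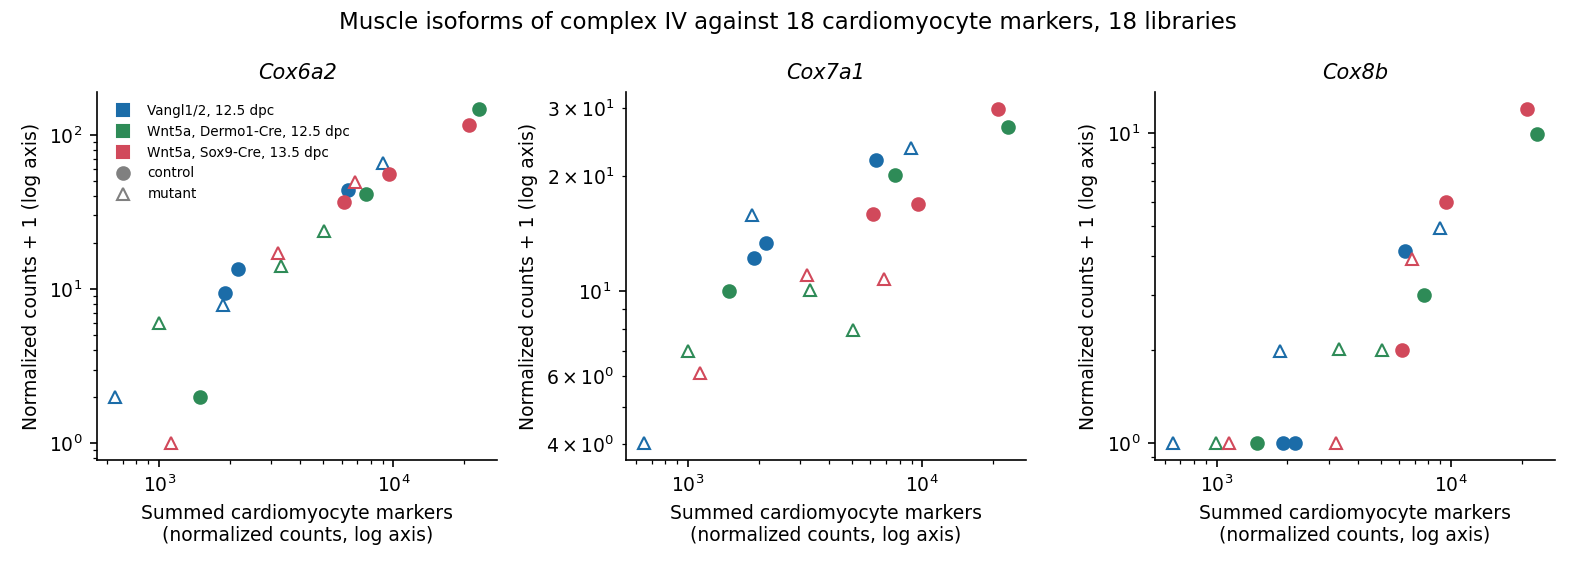
Normalized counts plus 1 of *Cox6a2*, *Cox7a1* and *Cox8b* (log axis) against the sum of 18 cardiomyocyte markers (log axis), 1 point per library, coloured by experiment with controls filled and mutants open. *Cox6a2* runs from 0 to 147 normalized counts over the 18 libraries and is high where the marker sum is high; the tables were normalized separately.

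Of the members tested, 3 had all mutants below all controls in both experiments at E12.5, which share no library, and 0 in all 3 experiments. These were 3 of the 19 members apart in the *Vangl1/2* experiment and 3 of the 22 in the *Dermo1Cre* experiment, beside 0.988% of the 14066 genes tested in both. In both experiments at E12.5 members lay below all controls more often than all genes did. The joint count is thus a description and no excess is read from it. *Ndufb6*, an accessory subunit, had 999, 683 and 1220.1 in the controls and 682, 661 and 550.5 in the mutants of the *Vangl1/2* experiment and 554, 545 and 575 in the controls and 458, 516 and 527 in the mutants of the *Dermo1Cre* experiment. *Ndufs8* had 1682, 1117 and 1704 in the controls and 1100.0, 1051 and 995 in the mutants and 966, 987 and 979 in the controls and 826, 895 and 943 in the mutants, in the same order. *Ndufa13* had 1942, 1278 and 2011 in the controls and 1161, 1234 and 1058 in the mutants of the *Vangl1/2* experiment. No member was apart in opposite directions in any pair of experiments. *Ndufb6* was named after its values were seen. In the *Sox9Cre* experiment the same genes had 0.10 (SE 0.088), −0.04 (SE 0.063) and −0.03 (SE 0.068), with overlapping groups.

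Promoter windows from 250 bases before to 50 after the start were found for 72 of the 87 members in RefSeq's GRCm38.p6 annotation, 3 of them by an older name. The letters of 5 known motifs were searched on both strands. Each gene was counted once per motif if any of its windows held it, and the 72 members had 78 windows. The NRF1 core GCGCANGC was found in 33.3% of these members against 11.2% of all genes with a window, the ETS core CCGGAAG in 25% against 9.93%, and the YY1 core AAGATGG in 16.7% against 7.28%. The ERR half-site AAGGTCA was found in 11.1% against 5.38% and the GC box GGGCGG in 43.1% against 38.2%. At least 1 of the NRF1, ETS and YY1 letters was present in 61.1% of the members and 24.6% of all genes. Member windows had a median GC content of 58.0% against 52.7%. The NRF1 core was found for 9 of 33 complex I members, 3 of 5 in complex II, 2 of 5 in complex III, 1 of 13 in complex IV and 9 of 16 in complex V.

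The 200 bases before the start are shown for the 3 members that were apart in both experiments at E12.5, for *Atp5e* as the lowest of the *Vangl1/2* mutants, and for *Cox7a1* as a muscle isoform. Capitals mark the motif letters on either strand, with gaps of lower case between them.
*Ndufa13* (chr8:69902021-69902220, minus strand): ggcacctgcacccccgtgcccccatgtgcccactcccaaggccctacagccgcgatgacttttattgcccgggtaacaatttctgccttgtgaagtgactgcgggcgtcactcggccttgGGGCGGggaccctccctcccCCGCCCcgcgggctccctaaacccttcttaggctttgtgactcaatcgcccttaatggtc
*Ndufb6* (chr4:40279422-40279621, minus strand): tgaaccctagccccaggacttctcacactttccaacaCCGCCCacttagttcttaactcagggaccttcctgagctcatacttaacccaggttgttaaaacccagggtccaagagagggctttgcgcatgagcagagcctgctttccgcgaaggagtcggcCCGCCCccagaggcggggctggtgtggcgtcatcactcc
*Ndufs8* (chr19:3912775-3912974, minus strand): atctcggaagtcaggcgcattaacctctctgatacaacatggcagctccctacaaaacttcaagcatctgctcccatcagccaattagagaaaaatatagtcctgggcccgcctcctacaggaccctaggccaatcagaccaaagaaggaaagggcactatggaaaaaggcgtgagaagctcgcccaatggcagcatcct
*Atp5e* (chr2:174464102-174464301, minus strand): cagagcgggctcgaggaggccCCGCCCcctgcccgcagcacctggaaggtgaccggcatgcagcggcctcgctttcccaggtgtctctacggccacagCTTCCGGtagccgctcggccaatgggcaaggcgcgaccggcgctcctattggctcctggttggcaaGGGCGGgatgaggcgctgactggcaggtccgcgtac
*Cox7a1* (chr7:30183971-30184170, plus strand): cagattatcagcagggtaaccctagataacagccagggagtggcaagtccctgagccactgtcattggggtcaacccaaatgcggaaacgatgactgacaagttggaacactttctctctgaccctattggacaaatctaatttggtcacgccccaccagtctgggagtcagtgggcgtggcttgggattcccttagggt
*Ndufa13* and *Ndufb6* each held GC boxes, and *Atp5e* held GC boxes and the ETS core. None of the 5 searched motifs was found in these stretches of *Ndufs8* and *Cox7a1*. The searched windows are longer than the stretches shown. In them the ETS core was also found for *Ndufb6* and *Ndufs8* and the ERR half-site for *Atp5e*, at places not wholly within these stretches. A match of letters is a description of the sequence and not a binding site.

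Other genes of mitochondrial respiration and other gene groups with short transcripts were followed beside the members. Of the *Vangl1/2* table, 10 of 39 tested assembly factors were lower and 0 higher at an unadjusted p under 0.05 (median −0.26). This count and those of the lists below stand beside 8.56% lower and 12% higher of all genes tested. *Cox14*, a complex IV assembly factor, had −0.54 (SE 0.18), and *Surf1*, another, had −0.40 (SE 0.12). For the TCA cycle the counts were 2 lower and 0 higher of 13 (median −0.20), and for cytochrome c and other electron carriers 3 and 0 of 16 (median −0.23). The last list holds *Cyc1*, the cytochrome c1 of complex III, which the name rule does not catch, at −0.39 (SE 0.16). The regulators of mitochondrial genes, whose median length was 3493 nt, had 0 lower and 1 higher of 15 (median 0.00). That gene was *Gabpb2*, a GABP subunit, with 0.54 (SE 0.16), while *Nrf1* had −0.03 (SE 0.09) and *Tfam* −0.15 (SE 0.13). Genes of other mitochondrial proteins had 7 lower and 0 higher of 20 (median −0.30). The cytosolic ribosomal proteins had 57 lower and 0 higher of 81 (median −0.54), the mitochondrial ribosomal proteins 37 and 0 of 76 (median −0.40) and the proteasome subunits 10 and 0 of 38 (median −0.32). The median of the members, −0.46, lay between those of both ribosomal lists. Median lengths were 2491.5 nt for the TCA cycle, 1672.5 nt for electron carriers, 1573 nt for assembly factors and 1563.25 nt for other mitochondrial proteins. They were 774 nt for cytosolic and 1221 nt for mitochondrial ribosomal proteins and 1398.5 nt for proteasome subunits, beside 2723 nt over all genes tested. The part of length in these medians was not tested.

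In the *Dermo1Cre* experiment the same lists had 1 lower and 2 higher of 39 assembly factors (median −0.03), 3 lower and 0 higher of 13 TCA cycle genes (median −0.05) and 0 of 16 electron carriers in either direction (median −0.05). The regulators had 1 lower and 0 higher of 15 (median −0.04), and other mitochondrial proteins 2 and 0 of 20 (median −0.02). Over all genes tested, 4.76% were lower and 5.42% higher, and counts of 1 or 2 genes are not read as a difference. *Ogdh*, a subunit of the oxoglutarate dehydrogenase of the TCA cycle, had 3559, 3583 and 3565 in the controls and 3221, 3241 and 3402 in the mutants, with no overlap (log2 fold change −0.12, SE 0.038, unadjusted p = 0.0121, adjusted p = 0.375). *Surf1* had −0.23 (SE 0.076). Ribosomal proteins of the cytosol had 15 lower and 3 higher of 81 (median −0.06), those of mitochondria 6 and 0 of 76 (median −0.05), and proteasome subunits 2 and 0 of 39 (median −0.03). In the *Sox9Cre* experiment the assembly factors had 2 lower and 0 higher of 39 (median 0.02), and the TCA cycle genes 0 of 13 (median 0.02). The shares over all genes tested were 2.81% lower and 1.08% higher in that experiment. *Lyrm7*, an assembly factor of complex III, had 97.1, 90.6 and 98.8 in the controls and 75.1, 45.3 and 56.4 in the mutants, with all mutants below all controls (log2 fold change −0.72, SE 0.19, unadjusted p = 0.00543, adjusted p = 1). Of the electron carriers, regulators and other mitochondrial proteins, 0 of 16, 0 of 15 and 0 of 20 had an unadjusted p under 0.05 there with limma (medians 0.01, 0.00 and 0.03). The ribosomal lists of the cytosol and of mitochondria had medians of 0.03 each, and the proteasome subunits 0.04. No gene of these lists had an adjusted p under 0.05 in any experiment.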

How the data were processed

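Whole embryonic lungs were profiled by bulk RNA-Seq, and for each of the 3 experiments the authors deposited a table of normalized counts per gene and library (18 libraries), a signal made from gene counts divided by a size factor per library. The submitters' processing notes name Trim Galore, HISAT2, featureCounts, DESeq2 and the build mm10, without versions. The deposited means, log2 fold changes and p-values of the authors' own comparison were not used. All values were whole multiples of 1 read per library (100% within a tolerance of 0.01 reads), so reads could be recovered. Each table was normalized on its own, and tests were made only within it.

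Values plus 1 were log2 transformed, and genes that reached 10 normalized counts in 3 or more of 6 libraries were tested with limma (version 3.58.1, R 4.3.3), with a mean-variance trend, two-sided, and Benjamini-Hochberg adjustment over all genes at a threshold of 0.05. For 1 gene, an exact permutation test of 3 libraries against 3 cannot go below 0.1. The alternatives were edgeR's quasi-likelihood test (version 4.0.16) and DESeq2 (version 1.42.0) on the recovered reads, TMM scaling, pseudocounts of 0.5 and 5, other filters, removal of a lowess trend (span 0.3) on transcript length, a replicate block and leaving out each library. Transcript lengths are medians over coding transcripts in the basic set of GENCODE's mouse release M21 (GRCm38), which paired with 98.3% of the rows. Fits were tested on simulated data.

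Members, gene lists and markers were chosen with earlier results of these data known. Genes named in the text are the targeted genes, members with an adjusted p under 0.05, the lowest and highest tested member of each complex and experiment, the 5 smallest unadjusted p-values among members whose groups do not overlap, isoform pairs and core subunits, members nearest to the filter and, for levels, the highest of a complex, with exceptions said beside them. Genes of the other lists were named after their values were seen. The values of 1 member are not reported here.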

Additional observations from a re-analysis of the deposited data

How the results depend on the processing

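Over the alternatives, the direction of the members' median stayed below 0 in the *Vangl1/2* and *Dermo1Cre* experiments. In the *Vangl1/2* experiment, leaving out 1 library gave 0 to 6183 genes called, 0 to 77 members called, 8 to 78 members lower at an unadjusted p under 0.05 and medians of −0.69 to −0.32. With the length trend removed, 13 members were lower and the median was −0.090. With that trend removed and control replicate 2 left out, an alternative chosen after seeing the data, 2217 genes and 23 members were called and the median was −0.17. DESeq2 called 20 genes and 1 member. In the *Dermo1Cre* experiment, leaving out 1 library gave 0 to 54 genes called, 6 to 28 members lower (6 without control replicate 2 and 28 without mutant replicate 2) and medians of −0.12 to −0.05. DESeq2 called 100 genes, and with the length trend removed 9 members were lower. In the *Sox9Cre* experiment, leaving out 1 library gave 0 to 13 genes called, 0 to 9 members lower (9 without mutant replicate 1) and medians of −0.05 to 0.02. DESeq2 called 9 genes, with 1 member lower. Where no share over all genes is given for a fit, its count of lower members is a description only. The causes of these changes were not tested.

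The replicate numbers were not used as pairs in the main fits. Deviations of same-numbered libraries from the group means correlated by 0.01 to 0.30 in the *Vangl1/2* experiment. The range was −0.22 to 0.07 in the *Dermo1Cre* experiment and −0.12 to 0.13 in the *Sox9Cre* experiment. With 3 libraries per group, set against their own mean, these values cannot show whether libraries were paired. With a replicate block, 0, 16 and 0 genes were called. In these fits 63, 24 and 3 members were lower at an unadjusted p under 0.05, counts given without the share over all genes. Of the genes named by the rule, 46 of 621 values in the *Vangl1/2* experiment passed the threshold under an alternative where they had not, and 0 of 599 and 0 of 598 in the others. The sign of a fold change differed in 15, 36 and 41 of these values, in none of which either value was called.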
